A study of Mus musculus with 12 samples.

Results

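Most of the genes described here code for guidance cues of growing axons, adhesion molecules of neurons, and components of Notch and Wnt signalling. They were chosen by symbol, as every gene whose name begins like a semaphorin, plexin, neuropilin, ephrin, Eph receptor, slit, robo, netrin, Unc5, protocadherin, Ncam, contactin, neurexin, neuroligin, Lrfn, nectin, Dpysl, Numb, Notch, delta, jagged, frizzled or Wnt gene. Of the 6427 genes with values, 51 met this rule, on 69 clones. The probe table holds 79 such genes, and the other 28 had no value in any sample. With values were 17 of 23 names in the semaphorin and plexin group, 6 of 10 ephrins and Eph receptors, 3 of 6 slit, robo, netrin and Unc5 genes, 3 of 4 protocadherins, 8 of 8 contactins, nectins and relatives, 3 of 3 synaptic adhesion genes, 3 of 3 Dpysl genes, 4 of 7 Notch genes and 3 of 13 Wnt and frizzled genes. No Wnt ligand is among them, so the Wnt group consists of 3 frizzled receptors. A last name, Jagn1, met the rule by its letters alone, because it encodes an endoplasmic reticulum protein and not a Notch ligand. Plxna4os1, an antisense RNA and not a plexin, also met it by its letters and is counted among the 17 names.

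Growing axons read attractive and repulsive cues through matched receptors. Semaphorins act through plexins and neuropilins, ephrins through Eph receptors, slits through robo receptors and netrins through Dcc and Unc5 receptors. Nectins, contactins, protocadherins and neuroligins hold neighbouring membranes and synapses together, and Dpysl proteins carry guidance signals to microtubules in the growth cone. Notch receptors are activated by delta and jagged ligands on adjacent cells and are restrained by Numb proteins, and frizzled proteins are the receptors of Wnt ligands. In the postnatal mouse brain these systems take part in late axon growth, pruning, synapse formation and glial differentiation.

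The study compared brains of postnatal day 10 C57Bl/6j mice of 3 genotypes, Gja9 (-/-), Gja9 (+/-) and wildtype, to find transcripts altered by total or partial loss of Gja9. The current symbol of Gja9 is Gjd2, and its product, connexin36, forms the gap junctions of electrical synapses between neurons. Each genotype has 4 samples, described by the study as biological replicates. They lie as the 2 colours of 2 spotted cDNA arrays per genotype, or 6 arrays in all. The labels do not describe how the allele was made, and they give no sex and no link between samples and individual mice. P-values therefore measure the spread between these samples, part of which may be technical. The arrays hold 0 probes named for the targeted gene, so its loss was not read out.

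Values are log2 signals relative to the mean signal of their own sample, and a difference of 1 is a doubling. Which samples shared an array was read from the values (samples 1 and 2 of a genotype, and samples 3 and 4). For the 51 genes the median size of the difference between the arrays of a genotype was 0.37 log2 units in Gja9 (-/-), 0.36 in Gja9 (+/-) and 0.48 in wildtype. Between the colours of 1 array it was 0.17, 0.10 and 0.15 in the same order. The arrays of Gja9 (-/-) stood apart by more than 1 log2 unit for 9 of the 51 genes, against 13.9% of all features. Those of Gja9 (+/-) did so for 1 gene (3.50% of all features) and those of wildtype for 2 genes (9.08%). Sema4g was the widest in Gja9 (-/-), where its arrays differed by 2.49. On the first Gja9 (-/-) array, and less on others, signals also shifted together along stretches of probe numbers, so many differences are also given after local centring, which subtracts the median deviation of neighbouring probes. Local centring turned the direction of 11 of the 51 genes in Gja9 (-/-) against wildtype, of 9 in Gja9 (+/-) against wildtype and of 11 between the knockout groups.

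Markers of cell types were read as a description, and 0 of the 7 measured neuronal markers, of 13 listed, were dimmer than the median feature. The same held for the measured astrocyte, choroid plexus and erythroid markers, so this brightness does not single out neurons. Of the 7 neuronal markers, 2 were higher and 5 lower in Gja9 (-/-) than in wildtype. Their median difference was -0.30, and 0.03 after local centring. The mean log2 value of these neuronal markers lay between 0.65 and 1.67 in Gja9 (-/-) samples, 1.47 and 1.73 in Gja9 (+/-) samples and 1.51 and 1.64 in wildtype samples. Of the neuronal, astrocyte (5 of 9 measured), oligodendrocyte (4 of 11), microglial (4 of 10), endothelial (3 of 7), meningeal (5 of 6), choroid plexus (1 of 4) and erythroid (3 of 6) markers, 0 passed the test in any comparison. The means of the 4 oligodendrocyte markers lay between -0.10 and 0.54 in Gja9 (-/-), 0.40 and 0.83 in Gja9 (+/-) and 0.66 and 0.79 in wildtype. Those of the 5 astrocyte markers lay between 1.01 and 1.45 in Gja9 (-/-), 0.67 and 0.98 in Gja9 (+/-) and 0.41 and 1.04 in wildtype. The astrocyte markers were split, with 3 higher and 2 lower in Gja9 (-/-) than in wildtype (-0.24 to 1.66). In Gja9 (+/-) 1 was higher and 4 were lower (-0.49 to 1.75). All 4 oligodendrocyte markers were lower in Gja9 (-/-) than in wildtype, with a median of -0.67, which was -0.17 after local centring. The part of cell makeup in the differences below was not tested, and in whole-brain RNA fewer cells of a type and less RNA per cell cannot be told apart.

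Complete loss of Gja9 was set against wildtype first. The lowest values relative to wildtype were in Efnb1, an ephrin ligand, at -2.14 log2 units, in Numbl, a Numb-like protein that restrains Notch, at -1.94, and in Lrfn4, a synaptic adhesion protein, at -1.62. The highest were in Jagn1 at 1.003 and Ephb6, an Eph receptor, at 0.95. None of the 51 genes passed limma's test at a Benjamini-Hochberg adjusted p under 0.05 over all 9514 features, where 0.326% of all features passed. The smallest adjusted p among the genes was 0.135, for Lrfn4. At an unadjusted p under 0.05 there were 9 genes (11.6% of all features), of which 2 were higher (2.41%) and 7 lower (9.22%) in Gja9 (-/-). With the colours of each array averaged, 0 genes passed and 9 had an unadjusted p under 0.05, where 0.021% and 10.7% of all features did.

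The directions were evenly split, with 25 genes higher and 26 lower in Gja9 (-/-), while 41.1% of all features were higher and 58.9% lower. The median difference was -0.00, against -0.10 over all features. The 4 Gja9 (-/-) samples did not overlap the 4 wildtype samples in 13 genes, where 23.1% of all features did not. They were higher in the 7 genes Efna5, Ephb6, Jagn1, Notch1, Plxna4, Plxnb2 and Slit3 (7.52% of all features), and lower in the 6 genes Dpysl2, Efnb1, Lrfn4, Nectin2, Nrp1 and Plxna4os1 (15.6%).

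Partial loss of Gja9 was set against wildtype next. Sema3a, a secreted repellent of axons, stood at 1.38 log2 units, Numb, an inhibitor of Notch, at 1.25, and Nlgn2, the neuroligin of inhibitory synapses, at 0.70. None of the 51 genes passed limma's test, where 0% of all features passed, and the smallest adjusted p was 1. These 3 genes were those with an unadjusted p under 0.05 (2.19% of all features), all higher in Gja9 (+/-) (1.67%). With array means they were 2, Numb and Sema3a, where 1.88% of all features were. In direction, 34 genes were higher and 17 lower, while 54.4% of all features were higher and 45.6% lower, and the median difference was 0.10, against 0.03 over all features. The median size of the difference, whatever its direction, was 0.18 (0.20 over all features), and in Gja9 (-/-) against wildtype it was 0.37 (0.31). The Gja9 (+/-) and wildtype samples did not overlap in 7 genes, where 14.8% of all features did not. The 5 higher ones (8.67% of all features) were Notch1, Robo1, Numb, Sema3a and Nlgn2, and the 2 lower ones (6.09%) Dpysl3 and Sema6a. After local centring 0 genes passed here, where 0.0105% of all features did.

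The direct comparison of Gja9 (-/-) with Gja9 (+/-) shares its samples with both comparisons above. Numbl stood at -2.65 log2 units, Efnb1 at -2.30, Pcdh12, a vascular protocadherin, at -1.56 and Lrfn4 at -1.53. None of the 51 genes passed limma's test, where 0.273% of all features passed, and the smallest adjusted p was 0.0723, for Numbl. An unadjusted p under 0.05 was reached by 10 genes (15% of all features), of which 2 were higher (3.64%) and 8 lower (11.3%). The same 10 genes did so with array means, where 13.4% of all features did, and 0 genes and 0% of all features passed the adjusted threshold. In direction, 20 genes were higher (36.9% of all features) and 31 lower (63.1%), and the median difference was -0.24, against -0.17 over all features. The samples did not overlap in 21 genes, where 32.7% of all features did not, with 8 higher (10.2%) and 13 lower (22.5%).

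**Figure D1:**
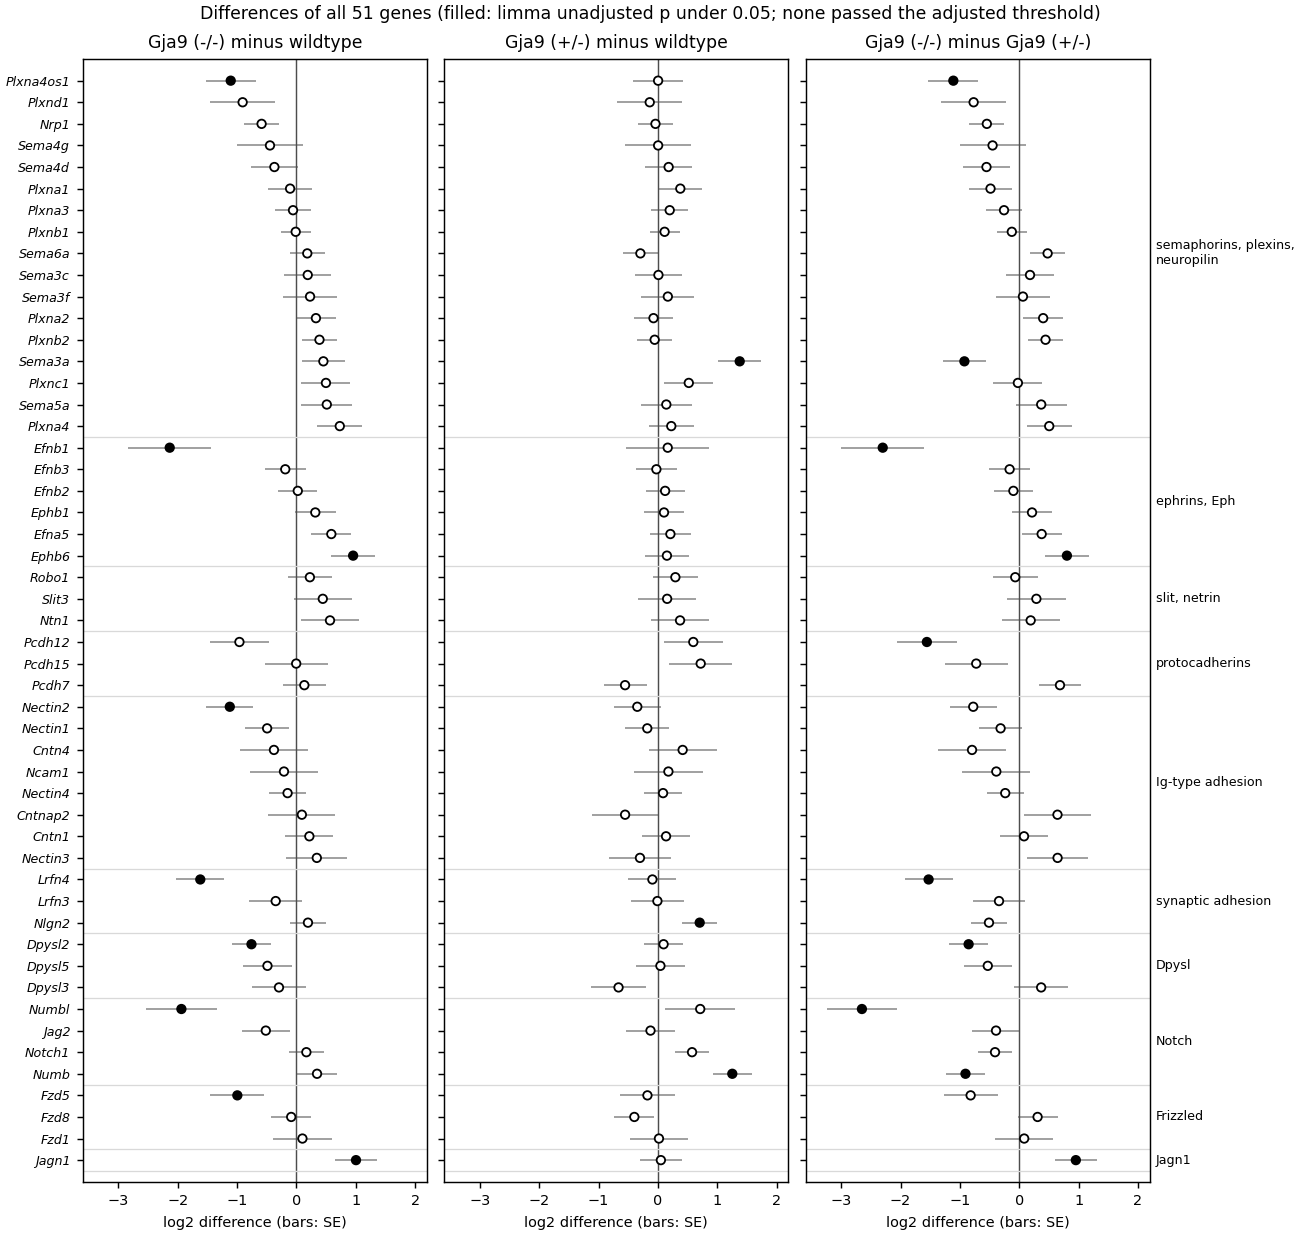
Log2 differences with their standard errors (limma, 4 samples on 2 arrays per genotype) of all 51 genes in the 3 comparisons, grouped by family. Filled points have an unadjusted p under 0.05, and the widest differences are those of Efnb1, Numbl and Lrfn4 in the left panel and of Numbl, Efnb1 and Pcdh12 in the right panel, none past the adjusted threshold.

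Among the Notch genes, Numbl gave the lowest unadjusted p of all 51 genes in the reported model, in the comparison of Gja9 (-/-) with Gja9 (+/-). Its values were -5.11, -4.96, -3.19 and -3.03 in the Gja9 (-/-) samples, -1.45, -1.46, -1.38 and -1.38 in the Gja9 (+/-) samples and -3.28, -2.99, -1.17 and -1.09 in the wildtype samples. All 4 Gja9 (-/-) samples lay below all Gja9 (+/-) samples, while the second Gja9 (-/-) array was at the level of the first wildtype array. The wildtype arrays lay 2.01 apart, the widest gap of any of the genes between wildtype arrays. The difference was -1.94 ± 0.59 in Gja9 (-/-) against wildtype (SE, n = 4 samples on 2 arrays per genotype, limma adjusted p = 0.217) and -2.65 ± 0.59 against Gja9 (+/-) (adjusted p = 0.0723). It was 0.71 ± 0.59 in Gja9 (+/-) against wildtype. After local centring these were -2.02 (adjusted p = 0.0991), -2.83 (adjusted p = 0.0247) and 0.80, so that Numbl passed in 1 of the 3 comparisons under that setting, where 1.41% of all features did. Without the first Gja9 (-/-) array the difference was -0.98 against wildtype and -1.69 against Gja9 (+/-).

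Numb, a close relative of Numbl, read -2.48, -2.41, -2.14 and -1.88 in the Gja9 (-/-) samples, -1.17, -1.08, -1.48 and -1.55 in the Gja9 (+/-) samples and -2.44, -2.41, -2.68 and -2.78 in the wildtype samples. The Gja9 (+/-) samples lay above all others, and the Gja9 (-/-) and wildtype samples overlapped. Numb stood at 1.25 ± 0.33 in Gja9 (+/-) against wildtype (limma adjusted p = 1), at 0.35 ± 0.33 in Gja9 (-/-) against wildtype (adjusted p = 0.746) and at -0.91 ± 0.33 in Gja9 (-/-) against Gja9 (+/-) (adjusted p = 0.231). Local centring left these at 0.97, 0.08 and -0.88. The remaining Notch genes were Notch1, a receptor, and Jag2, a ligand. Notch1 values spanned 0.01 to 0.04 in Gja9 (-/-), 0.03 to 0.75 in Gja9 (+/-) and -0.24 to -0.09 in wildtype, with differences from wildtype of 0.17 ± 0.29 in Gja9 (-/-) and 0.58 ± 0.29 in Gja9 (+/-). Both knockout groups lay above wildtype in Notch1, but after local centring the difference of Gja9 (-/-) from wildtype was -0.35 and that of Gja9 (+/-) 0.19. Jag2 stood at -0.52 ± 0.41 in Gja9 (-/-) and -0.12 ± 0.41 in Gja9 (+/-), with overlapping samples, and at -0.12 in Gja9 (-/-) after local centring.

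The synaptic adhesion genes were Lrfn4, Lrfn3 and Nlgn2. In the reported model Lrfn4 had the lowest unadjusted p of all 51 genes in Gja9 (-/-) against wildtype. The leucine-rich Lrfn proteins sit in synaptic membranes and promote synapse formation. Lrfn4 read -4.43, -4.22, -3.48 and -3.49 in the Gja9 (-/-) samples, -2.36, -2.04, -2.53 and -2.57 in the Gja9 (+/-) samples and -2.87, -2.68, -1.89 and -1.69 in the wildtype samples. The 4 Gja9 (-/-) samples lay below the 8 others, with no overlap. Lrfn4 differed by -1.62 ± 0.40 from wildtype in Gja9 (-/-) (limma adjusted p = 0.135), by -0.09 ± 0.40 in Gja9 (+/-) and by -1.53 ± 0.40 between Gja9 (-/-) and Gja9 (+/-) (adjusted p = 0.116). After local centring, Lrfn4 passed in both comparisons of Gja9 (-/-), at -1.75 ± 0.31 against wildtype (adjusted p = 0.0217) and -1.75 ± 0.31 against Gja9 (+/-) (adjusted p = 0.0247). It was the only one of the 51 genes to pass against wildtype under that setting, where 0.589% of all features did. With local centring on array means, 0 genes passed in either comparison. Quantile normalization left it at -1.03 and -0.78, without a call.

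Nlgn2, which organises inhibitory synapses, read 1.15, 1.22, 1.70 and 1.77 in the Gja9 (-/-) samples, 1.90, 1.98, 1.95 and 2.06 in the Gja9 (+/-) samples and 1.60, 1.62, 0.94 and 0.90 in the wildtype samples. All Gja9 (+/-) samples lay above the rest, and Gja9 (-/-) and wildtype overlapped. The difference was 0.70 ± 0.30 in Gja9 (+/-) against wildtype (limma adjusted p = 1) and 0.19 ± 0.30 in Gja9 (-/-). Its 2 clones lay at 0.61 ± 0.36 and 0.80 ± 0.34 in Gja9 (+/-). Lrfn3 stood at -0.35 ± 0.45 in Gja9 (-/-) and -0.01 ± 0.45 in Gja9 (+/-), again with overlap, and at -0.74 and -0.34 in the same order after local centring.

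The promoters of Numbl and Lrfn4, the genes lowest by p in Gja9 (-/-) in the reported model, and of Numb and Sema3a, the genes highest in Gja9 (+/-), are shown. None of these genes passed in that model, and on array means Efnb1 was lowest by p in Gja9 (-/-). Each run is the 250 bases before the gene's start in the mouse build GRCm38.p6, from RefSeq, read 5′ to 3′ on the gene's strand. Capitals mark GGGCGG, the core of the GC box, or its reverse complement CCGCCC, with overlapping matches counted apart. The windows are chr7:27258511-27258760 on the plus strand for Numbl, chr19:4615668-4615917 on the minus strand for Lrfn4, chr12:83921935-83922184 on the minus strand for Numb, where 3 starts are listed and the most upstream was taken, and chr5:13396534-13396783 on the plus strand for Sema3a.
Numbl: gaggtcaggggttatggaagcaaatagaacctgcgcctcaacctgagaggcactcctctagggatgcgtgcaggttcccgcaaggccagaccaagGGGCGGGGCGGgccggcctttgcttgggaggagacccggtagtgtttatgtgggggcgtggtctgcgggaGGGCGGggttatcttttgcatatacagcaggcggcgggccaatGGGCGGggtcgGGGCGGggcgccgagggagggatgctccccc
Lrfn4: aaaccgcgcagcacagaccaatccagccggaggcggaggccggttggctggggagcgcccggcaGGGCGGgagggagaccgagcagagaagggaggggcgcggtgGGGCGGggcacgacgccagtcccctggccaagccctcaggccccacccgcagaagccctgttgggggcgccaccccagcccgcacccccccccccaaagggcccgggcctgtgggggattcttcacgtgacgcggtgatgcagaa
Numb: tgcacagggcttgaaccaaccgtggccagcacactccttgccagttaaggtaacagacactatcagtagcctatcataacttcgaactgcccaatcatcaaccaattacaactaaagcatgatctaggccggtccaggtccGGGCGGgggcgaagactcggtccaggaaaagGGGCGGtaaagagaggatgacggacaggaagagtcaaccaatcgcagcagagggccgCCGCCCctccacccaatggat
Sema3a: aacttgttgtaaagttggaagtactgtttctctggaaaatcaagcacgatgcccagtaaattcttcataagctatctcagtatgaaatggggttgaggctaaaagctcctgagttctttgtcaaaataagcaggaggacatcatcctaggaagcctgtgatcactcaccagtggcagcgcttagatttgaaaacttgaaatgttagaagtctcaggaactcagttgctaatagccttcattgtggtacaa

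The GC box core occurred 5 times in the Numbl window, 2 times in that of Lrfn4, 3 times in that of Numb and 0 times in that of Sema3a, while 32.8% of 32841 windows of the same length hold at least 1. The share of G and C was 66%, 73.6%, 55.2% and 40.8% in the same order. TGGGAA, the core bound by the nuclear partner of Notch, was searched on both strands too and occurred 0 times in each of the 4 windows, against 21.6% of all windows. These letter matches are descriptions and not evidence of binding.

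Of the 17 names in the semaphorin group, 9 were higher and 8 lower in Gja9 (-/-) than in wildtype, with a median of 0.18, and 12 were higher and 5 lower in Gja9 (+/-), with a median of 0.11. None passed the test, and the smallest adjusted p in Gja9 (-/-) against wildtype was that of Plxna4os1. Sema3a, a secreted ligand of this group, read -1.60, -1.53, -2.29 and -2.40 in the Gja9 (-/-) samples, -0.92, -1.16, -0.89 and -1.15 in the Gja9 (+/-) samples and -2.12, -2.17, -2.71 and -2.63 in the wildtype samples. The Gja9 (+/-) samples lay above all others, and the first Gja9 (-/-) array lay between them and wildtype. Sema3a stood at 1.38 ± 0.37 in Gja9 (+/-) against wildtype (limma adjusted p = 1), at 0.45 ± 0.37 in Gja9 (-/-) against wildtype and at -0.93 ± 0.37 between the knockout groups (adjusted p = 0.262). The neighbouring probes of Sema3a were shifted too, and local centring left 0.92, 0.66 and -0.26. Without the first Gja9 (-/-) array the difference of Gja9 (-/-) from wildtype was 0.06.

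The receptors of Sema3a were measured as well. Nrp1, the neuropilin that binds it, spanned -1.82 to -1.57 in Gja9 (-/-), -1.41 to -0.86 in Gja9 (+/-) and -1.12 to -1.02 in wildtype. The Gja9 (-/-) samples lay below both other groups, at -0.59 ± 0.30 against wildtype (limma adjusted p = 0.468), and its 2 clones ran alike, but after local centring the difference was -0.20. Among the signalling plexins that pair with Nrp1, Plxna4 stood at 0.73 ± 0.38 in Gja9 (-/-) (adjusted p = 0.488), with the 4 samples between -0.82 and -0.11 in Gja9 (-/-) and between -1.45 and -1.05 in wildtype. Plxna1 (-0.11), Plxna2 (0.33) and Plxna3 (-0.06) overlapped wildtype. Plxna4os1, an antisense RNA of the Plxna4 locus, read -2.93, -2.84, -2.05 and -1.96 in the Gja9 (-/-) samples, -1.07, -1.05, -1.61 and -1.60 in the Gja9 (+/-) samples and -1.51, -1.29, -1.10 and -1.45 in the wildtype samples. Its Gja9 (-/-) samples lay below all others, opposite to Plxna4, at -1.11 ± 0.42 against wildtype (adjusted p = 0.335) and -1.11 ± 0.42 against Gja9 (+/-) (adjusted p = 0.248). Spotted cDNA does not separate strands, so signal from overlapping sense and antisense transcripts cannot be told apart.

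The other ligands and receptors of the group gave smaller or less even differences. Among the secreted ligands, Sema3c stood at 0.19 ± 0.40 and Sema3f at 0.23 ± 0.45 in Gja9 (-/-) against wildtype. The membrane-bound ligands Sema4d (-0.37), Sema4g (-0.45), Sema5a (0.51) and Sema6a (0.18) also overlapped wildtype in Gja9 (-/-). Sema4g read -3.09 and -3.16 on the first Gja9 (-/-) array and -0.65 and -0.63 on the second, which puts wildtype, between -1.60 and -1.30, inside the range of the knockout, and after local centring Sema4g stood at 0.36. Sema6a, a ligand that also signals as a receptor, lay below wildtype in every Gja9 (+/-) sample, by -0.29 ± 0.29. Its 2 clones differed, at -0.63 ± 0.38 and 0.04 ± 0.36. Plxnb2, a receptor of class 4 semaphorins, lay above wildtype in every Gja9 (-/-) sample, at 0.39 ± 0.29, and at 0.04 after local centring. The 2 clones of Plxnb2 stood at 0.70 ± 0.57 and 0.07 ± 0.38 there. Plxnd1, a vascular and neuronal plexin, stood at -0.91 ± 0.54 in Gja9 (-/-), and at -0.16 after local centring.

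The ephrin group held the ligands Efna5, Efnb1, Efnb2 and Efnb3 and the receptors Ephb1 and Ephb6. Efnb1 read -4.00, -4.26, -3.48 and -2.61 in the Gja9 (-/-) samples, -1.27, -1.20, -1.30 and -1.38 in the Gja9 (+/-) samples and -1.93, -1.42, -1.33 and -1.14 in the wildtype samples. The Gja9 (-/-) samples lay below all others, by -2.14 ± 0.70 against wildtype (limma adjusted p = 0.260) and -2.30 ± 0.70 against Gja9 (+/-) (adjusted p = 0.159). The probes next to Efnb1 were shifted in the same direction, by a median of -1.37 on the first Gja9 (-/-) array and -0.69 on the second. After local centring Efnb1 stood at -0.65 ± 0.40 (adjusted p = 0.469) and -0.63 (adjusted p = 0.390).

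Ephb6, a receptor without kinase activity, read -0.25, -0.11, 0.31 and 0.09 in the Gja9 (-/-) samples, -0.85, -1.10, -0.64 and -0.58 in the Gja9 (+/-) samples and -1.22, -1.33, -0.61 and -0.62 in the wildtype samples. Against these 8 others the Gja9 (-/-) samples lay higher, at 0.95 ± 0.37 against wildtype (limma adjusted p = 0.336), 0.80 ± 0.37 against Gja9 (+/-) (adjusted p = 0.325). After local centring these were 0.70 and 0.41. Efna5, a ligand anchored in the membrane by a lipid, was measured by 3 clones. It read -0.79, -0.65, -0.85 and -0.79 in the Gja9 (-/-) samples, -1.21, -1.37, -1.05 and -0.95 in the Gja9 (+/-) samples and -1.32, -1.29, -1.28 and -1.535 in the wildtype samples. It lay above wildtype in every Gja9 (-/-) sample, at 0.59 ± 0.34 (adjusted p = 0.539), and stood at 0.21 ± 0.34 in Gja9 (+/-). Efnb2 (0.02), Efnb3 (-0.19) and Ephb1 (0.32) overlapped wildtype in Gja9 (-/-).

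The 3 genes of the slit and netrin group were higher in both knockout groups than in wildtype, and none passed. Ntn1, a secreted attractant, read -2.02, -2.13, -0.997 and -0.54 in the Gja9 (-/-) samples, -1.89, -1.83, -1.40 and -1.34 in the Gja9 (+/-) samples and -2.11, -2.10, -1.77 and -1.97 in the wildtype samples. Only the second array of each knockout group lay above all wildtype samples, with differences of 0.56 ± 0.49 in Gja9 (-/-) and 0.37 ± 0.49 in Gja9 (+/-) (limma adjusted p = 0.715 and 1). Slit3, a repellent ligand, stood at 0.44 ± 0.49 in Gja9 (-/-) with all samples above wildtype, and at 0.12 after local centring. Robo1, the receptor of slits, stood at 0.23 ± 0.38 in Gja9 (-/-) and 0.29 ± 0.38 in Gja9 (+/-), where its samples lay above wildtype. The shared direction did not hold after local centring, which put Robo1 at -0.02 in Gja9 (-/-) and Slit3 at -0.06 in Gja9 (+/-). Ntn1 then stood at 0.79 in Gja9 (-/-) (limma adjusted p = 0.152) and 0.39 in Gja9 (+/-). Its centred array means were -1.38 and -1.23 in Gja9 (-/-) and -2.20 and -1.99 in wildtype, so both Gja9 (-/-) arrays lay above wildtype.

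**Figure D2:**
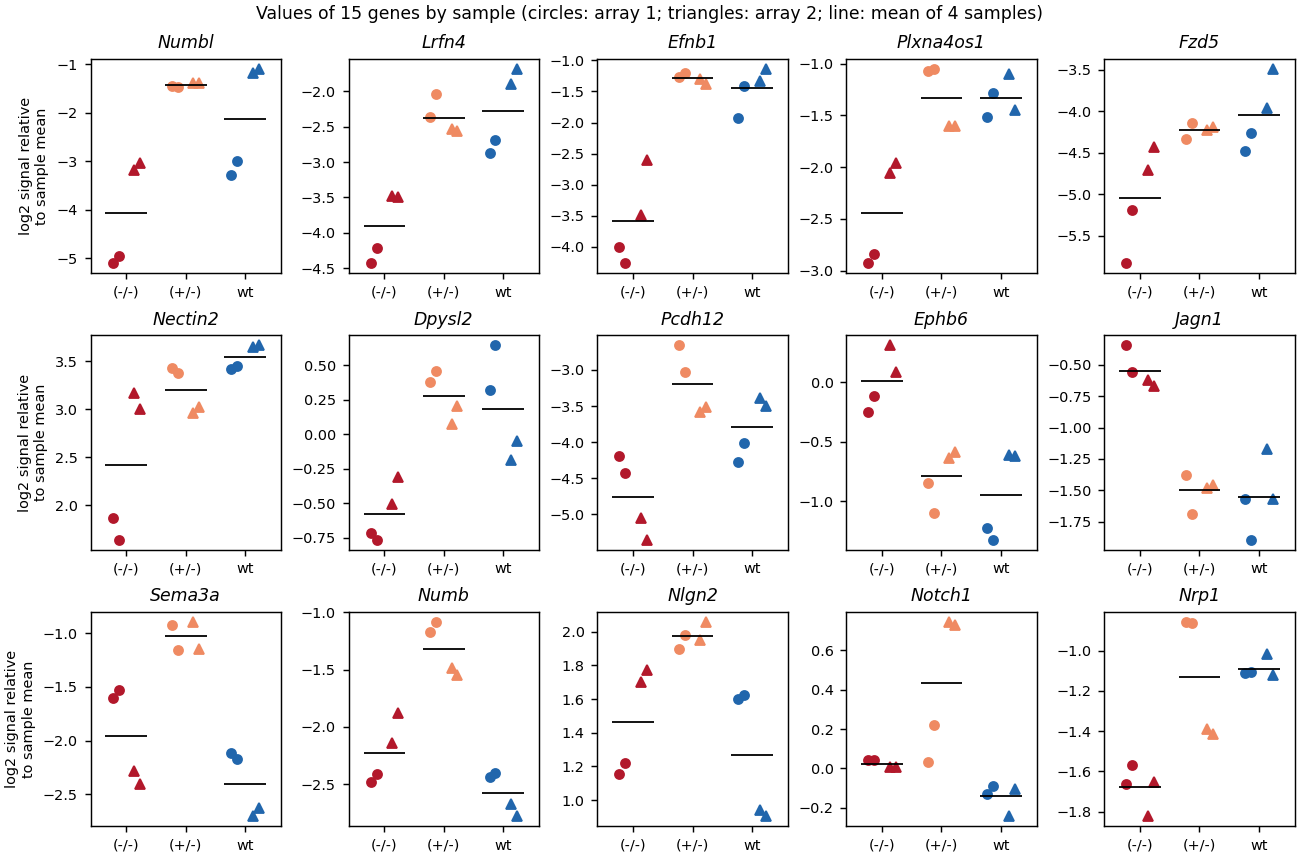
Log2 signal relative to the sample mean in every sample for 15 genes, with circles and triangles for the 2 arrays of a genotype and a line at the mean of 4 samples. The Gja9 (-/-) samples of Lrfn4, Efnb1 and Plxna4os1 lie below all others, the Gja9 (+/-) samples of Sema3a, Numb and Nlgn2 above all others, and the wildtype arrays of Numbl lie 2.01 apart.

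Nectin2 was the gene of the adhesion group with the widest difference in Gja9 (-/-). It is a nectin of adherens junctions. It read 1.87, 1.64, 3.17 and 3.002 in the Gja9 (-/-) samples, 3.43, 3.38, 2.96 and 3.02 in the Gja9 (+/-) samples and 3.42, 3.45, 3.65 and 3.67 in the wildtype samples. The first Gja9 (-/-) array lay far below the rest, and the second was close to the second Gja9 (+/-) array. The difference was -1.12 ± 0.39 in Gja9 (-/-) against wildtype (limma adjusted p = 0.288) and -0.35 ± 0.39 in Gja9 (+/-). Neighbouring probes on that first array were shifted by a median of -1.02, and Nectin2 stood at -0.24 after local centring and at -0.46 without that array.

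The other nectins and contactins were split in direction. Nectin1 stood at -0.49 ± 0.37, Nectin3 at 0.34 ± 0.52 and Nectin4 at -0.15 ± 0.31 in Gja9 (-/-) against wildtype, and at 0.20, 0.65 and 0.06 in the same order after local centring. Of the axonal adhesion genes, Cntn1 stood at 0.22, Cntn4 at -0.38 and Ncam1, the neural cell adhesion molecule, at -0.21, all with overlapping samples. Cntn4 turned to 0.49 after local centring and to 0.38 without the first Gja9 (-/-) array. Cntnap2, which gathers potassium channels along myelinated axons, read -1.66, -1.19, -0.34 and -0.35 in the Gja9 (-/-) samples, -0.77, -0.75, -2.42 and -2.18 in the Gja9 (+/-) samples and -1.26, -1.45, -0.64 and -0.55 in the wildtype samples. Its arrays differed within each genotype by more than its genotypes did, with differences from wildtype of 0.09 ± 0.56 in Gja9 (-/-) and -0.55 ± 0.56 in Gja9 (+/-) (limma adjusted p = 0.977 and 1).

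Pcdh12, a protocadherin of vascular endothelium, read -4.19, -4.42, -5.05 and -5.35 in the Gja9 (-/-) samples, -2.66, -3.03, -3.59 and -3.51 in the Gja9 (+/-) samples and -4.27, -4.02, -3.38 and -3.50 in the wildtype samples. The Gja9 (-/-) samples lay below all Gja9 (+/-) samples and overlapped wildtype. It stood at -1.56 ± 0.50 in Gja9 (-/-) against Gja9 (+/-) (limma adjusted p = 0.178) and at -0.96 ± 0.50 against wildtype (adjusted p = 0.490). Pcdh12 is among the dimmest features, and quantile normalization left these differences at -0.57 and -0.16. The 3 measured endothelial markers, whose means lay between -0.57 and -0.40 in Gja9 (-/-), -0.10 and 0.01 in Gja9 (+/-) and -0.31 and 0.07 in wildtype, were on average lowest in Gja9 (-/-) too. All 3 were lower in Gja9 (-/-) than in wildtype, while against Gja9 (+/-) 2 were lower and 1 was higher, and their part in the result was not tested. Pcdh15, part of the tip links of hair cells, read -3.14, -2.92, -2.83 and -2.58 in the Gja9 (-/-) samples, -2.42, -2.26, -1.84 and -2.04 in the Gja9 (+/-) samples and -2.29, -2.38, -3.68 and -3.09 in the wildtype samples. Its wildtype samples spanned the Gja9 (-/-) samples, and it stood at -0.00 ± 0.53 in Gja9 (-/-) and 0.72 ± 0.53 in Gja9 (+/-), which was 0.22 after local centring. Pcdh7 stood at 0.13 ± 0.36 in Gja9 (-/-) and -0.55 ± 0.36 in Gja9 (+/-), and local centring left -0.26 and -0.40.

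The 3 Dpysl genes gave negative differences in Gja9 (-/-) against wildtype, and none passed. Dpysl2, which binds tubulin and carries signals of Sema3a, read -0.72, -0.77, -0.51 and -0.31 in the Gja9 (-/-) samples, 0.38, 0.45, 0.07 and 0.20 in the Gja9 (+/-) samples and 0.32, 0.64, -0.19 and -0.05 in the wildtype samples. All others lay above the Gja9 (-/-) samples, which differed by -0.76 ± 0.33 against wildtype (limma adjusted p = 0.400), by -0.85 ± 0.33 against Gja9 (+/-) (adjusted p = 0.257) and by -0.64 against wildtype after local centring. Dpysl3, a relative in growth cones, read 0.93, 0.78, 1.91 and 1.82 in the Gja9 (-/-) samples, 1.50, 1.21, 0.68 and 0.58 in the Gja9 (+/-) samples and 1.55, 1.84, 1.55 and 1.69 in the wildtype samples. The first Gja9 (-/-) array lay below wildtype and the second at its upper end, and all Gja9 (+/-) samples lay below it, with differences of -0.30 ± 0.46 and -0.66 ± 0.46. The difference of Dpysl3 in Gja9 (-/-) was -0.01 after local centring and 0.21 without the first Gja9 (-/-) array. Dpysl5 stood at -0.49 ± 0.41 in Gja9 (-/-), and at -0.05 after local centring.

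None of the 3 frizzled receptors of Wnt signalling passed the test. Fzd5 read -5.83, -5.19, -4.71 and -4.43 in the Gja9 (-/-) samples, -4.33, -4.15, -4.22 and -4.19 in the Gja9 (+/-) samples and -4.48, -4.26, -3.96 and -3.49 in the wildtype samples. Lowest were the Gja9 (-/-) samples, with 1 of them inside the wildtype range, at -0.997 ± 0.46 against wildtype (limma adjusted p = 0.426). Fzd5 is among the dimmest features, and under quantile normalization it stood at -0.22 against wildtype and at 0.34, the opposite direction, against Gja9 (+/-). Fzd8 read 0.990, 0.997, 1.42 and 1.49 in the Gja9 (-/-) samples, 0.76, 0.67, 1.06 and 1.18 in the Gja9 (+/-) samples and 0.91, 1.11, 1.51 and 1.73 in the wildtype samples. Its genotypes overlapped, at -0.09 ± 0.34 in Gja9 (-/-) and -0.40 ± 0.34 in Gja9 (+/-), and Fzd1 stood at 0.10 ± 0.49 and 0.02 ± 0.49.

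Jagn1, which serves the secretory pathway and is known for its role in neutrophils, read -0.34, -0.56, -0.62 and -0.67 in the Gja9 (-/-) samples, -1.38, -1.69, -1.48 and -1.46 in the Gja9 (+/-) samples and -1.57, -1.89, -1.17 and -1.57 in the wildtype samples. All 8 other samples lay below those of Gja9 (-/-). It stood at 1.003 ± 0.35 in Gja9 (-/-) against wildtype (limma adjusted p = 0.292), at 0.95 ± 0.35 against Gja9 (+/-) (adjusted p = 0.236). Local centring left these at 0.68 and 0.47. It was the 1 gene of the 51 higher in Gja9 (-/-) than in wildtype by more than 1 log2 unit, where 0.956% of all features were.

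The position of the probes moved with several of these differences. When the probe numbers are cut into 48 stretches, the last 3, singled out by earlier results of these data, held a probe of 5 of the 51 genes (Nectin2, Efnb1, Nrp1, Fzd5 and Jag2) and of 9.53% of all features. All 5 were lower in Gja9 (-/-) than in wildtype, where 58.9% of all features were. The stretches were picked from these same data, and the share among all features inside them was not counted. This count is therefore a description only and shows no excess of the 5 genes over their region. Nrp1 has 1 clone inside these stretches, at -0.55 against wildtype, and 1 outside them, at -0.62. After local centring the median difference over the 51 genes was 0.04 in Gja9 (-/-) against wildtype and 0.01 against Gja9 (+/-), and it was -0.01 and -0.02 over all features. Against wildtype, Numbl (-2.02), Lrfn4 (-1.75) and Plxna4os1 (-1.13) then lay beyond 1 log2 unit, and Efnb1 (-0.65) and Nectin2 (-0.24) within it.

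**Figure D3:**
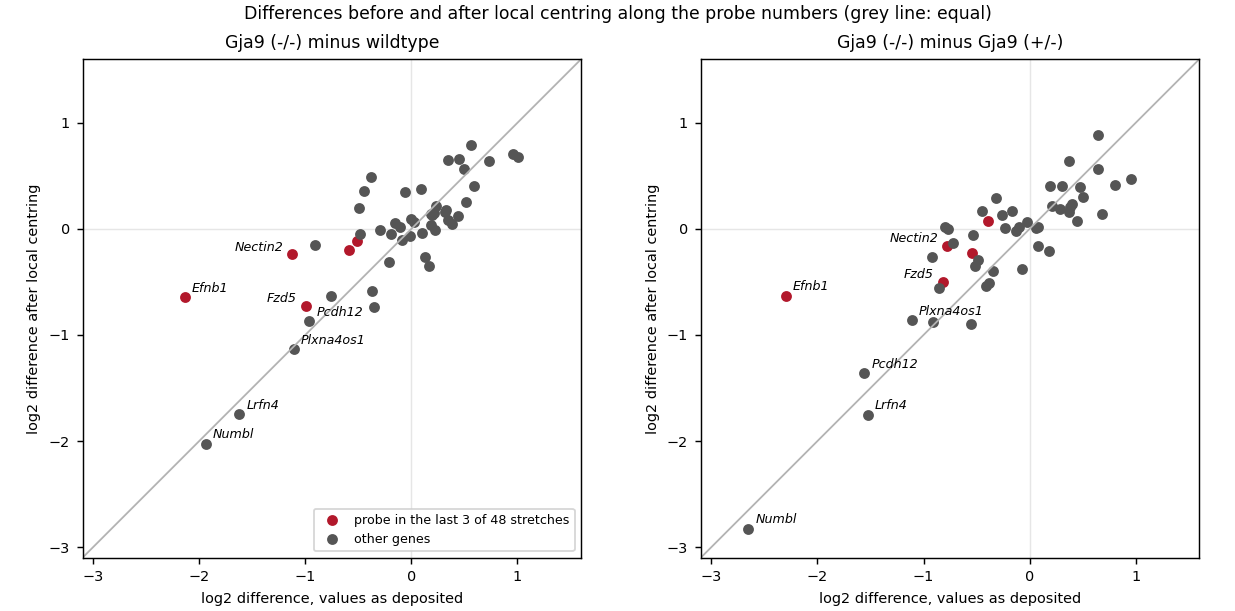
Log2 differences of the 51 genes as deposited (horizontal) and after local centring along the probe numbers (vertical), with genes in the last 3 stretches in red. Numbl and Lrfn4 lie near the line of equal values, while Efnb1 lies at -2.14 before and -0.65 after centring.

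Brightness moved with the differences as well. Of the 51 genes, 17 lay among the dimmest 25% of features. These 17 held 5 of the 7 genes that were lower in Gja9 (-/-) than in wildtype at an unadjusted p under 0.05. Over all features, in either direction, 15.5% of the dimmest 25% reached that threshold in this comparison. The share of lower features alone was not counted by brightness, so the 5 lower genes have no matching share. In the brighter groups of 25%, from dim to bright, 10.4%, 10.6% and 10.05% did. By mean signal, Fzd5 lay at the 0.02 percentile of all features, Pcdh12 at 0.07, Lrfn4 at 2.15, Numbl at 4.53, Efnb1 at 11.4 and Plxna4os1 at 22.9. Over all features the median difference of Gja9 (-/-) from wildtype was -0.28 in the dimmest 25% and -0.00 in the brightest 25%. Dpysl2 (75.1) and Nectin2 (99.5) were the lower genes in the bright range, and Numb (13.0) and Sema3a (20.1), higher in Gja9 (+/-), were dim. The mean signal was taken over the samples of all genotypes, so a gene low in Gja9 (-/-) ranked dimmer for that reason. A dim rank and a lower value in Gja9 (-/-) are thus partly linked by construction. The part of brightness in these results was not tested.

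**Figure D4:**
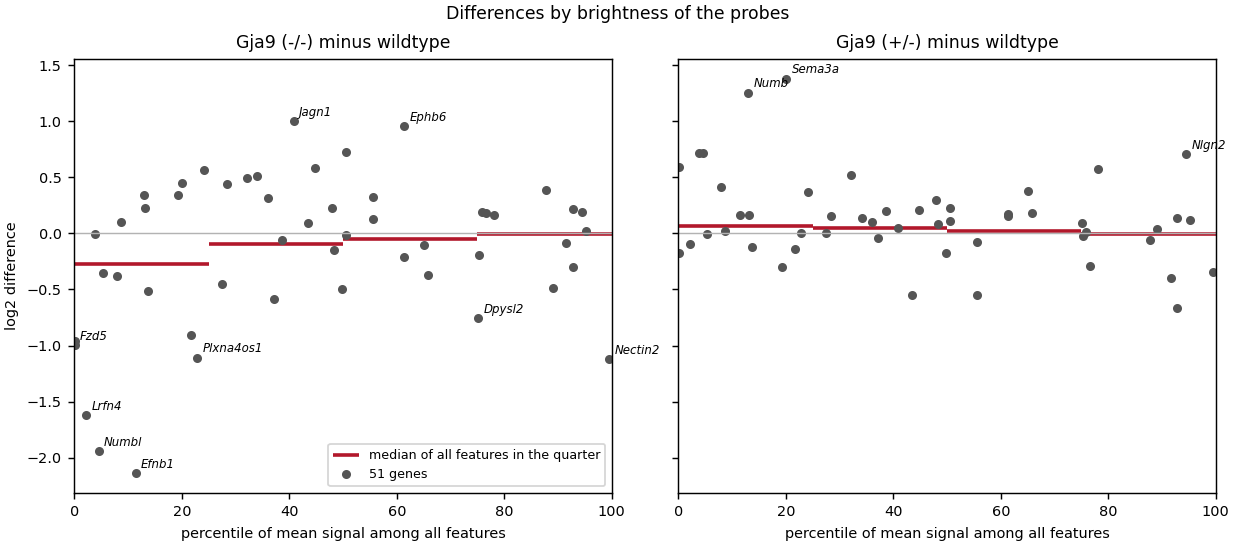
Log2 differences of the 51 genes against the percentile of their mean signal among all features, for both knockout groups against wildtype, with the median of all features in each 25% as a red line. The lowest values in Gja9 (-/-), Numbl, Efnb1 and Lrfn4, lie among the dimmest 25% of features. The mean signal includes the Gja9 (-/-) samples, which by construction moves genes low in them towards the dim end.

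Different clones of the same gene gave a second reading for 15 of the 51 genes. The clones of a gene lay a median of 0.47 log2 units apart in Gja9 (-/-) against wildtype and 0.50 in Gja9 (+/-) against wildtype. They had opposite directions in 5 of the 15 genes in Gja9 (-/-) and in 10 in Gja9 (+/-). The widest gaps were 1.17 in Cntn1 in Gja9 (-/-) and 1.02 in Ephb1 in Gja9 (+/-). Of the 12 genes with values in every sample above and an unadjusted p under 0.05 in a comparison with wildtype, Nlgn2 alone had a second clone. Near-identical family members can share signal on cDNA clones, which was not tested.

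**Figure D5:**
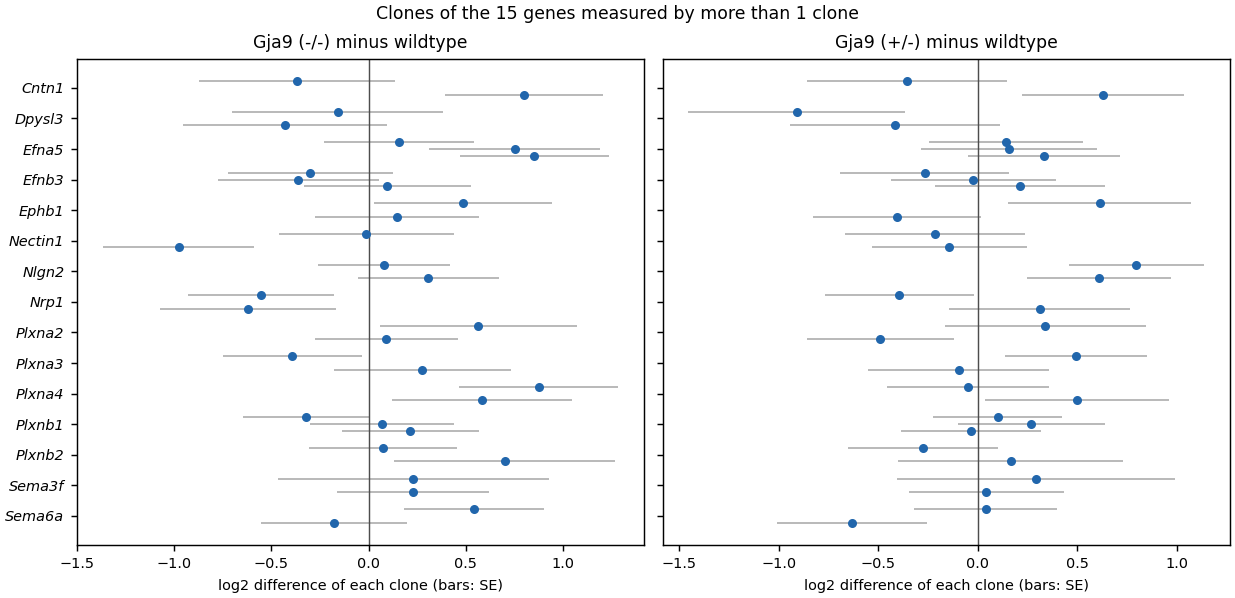
Log2 difference with its standard error (limma) of each clone of the 15 genes measured by more than 1 clone, in both knockout groups against wildtype. The clones of Nlgn2 and Nrp1 lie together in the panel where the gene differed most, and those of Cntn1 lie 1.17 apart in Gja9 (-/-).

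Across the 6 array means, the genes most like Numbl were Lrfn4 (Pearson r = 0.94), Fzd5 (0.93), Efnb1 (0.92), Plxna4os1 (0.87) and Nectin4 (0.81). After local centring the r of Nectin4 was -0.16, and those of the others lay between 0.83 and 0.95. The points share their arrays, and the first 4 genes share a dim signal with Numbl, so these values describe likeness only. That dim rank itself includes their low Gja9 (-/-) samples.

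Other genes of the same pathways, listed by role, gave 0 calls in the 3 comparisons by limma's adjusted p. Of 46 listed Notch pathway genes 24 were measured, with medians of -0.16 in Gja9 (-/-) and 0.05 in Gja9 (+/-) against wildtype, and of -0.33 between the knockout groups. At an unadjusted p under 0.05 were 1, 0 and 1 of these 24 in this order, where 11.6%, 2.19% and 15% of all features were. Itch, a ubiquitin ligase acting on Notch, stood at -0.94 ± 0.43 in Gja9 (-/-) against wildtype (adjusted p = 0.423) and at -0.01 after local centring. Ncstn, a subunit of the protease that releases the Notch domain, stood at -1.44 ± 0.48 in Gja9 (-/-) against Gja9 (+/-) (adjusted p = 0.196) and at -0.65 after local centring.

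Of 77 listed Wnt pathway genes 32 were measured, with medians of -0.03, 0.00 and -0.17 in the same order, and 1, 0 and 5 of these 32 had an unadjusted p under 0.05, beside the same 11.6%, 2.19% and 15% of all features. Sfrp1, a secreted Wnt antagonist, stood at 0.73 ± 0.27 in Gja9 (-/-) against wildtype (limma adjusted p = 0.329) and at 0.33 after local centring. Tcf7l2, a transcription factor of the pathway, stood at -1.50 ± 0.52 in Gja9 (-/-) against Gja9 (+/-) (adjusted p = 0.211) and at -0.93 after local centring. Of 92 further guidance and adhesion genes 42 were measured, with medians of 0.11, 0.07 and 0.05, and 3, 1 and 2 of these 42 had an unadjusted p under 0.05, beside those same shares. Rgmb, a repulsive guidance molecule, stood at 0.86 ± 0.28 in Gja9 (-/-) against wildtype (adjusted p = 0.256), with array means of 1.57 and 0.96 in Gja9 (-/-), 0.92 and 0.75 in Gja9 (+/-) and 0.26 and 0.55 in wildtype. Both Gja9 (-/-) arrays lay above both wildtype arrays in Rgmb, and after local centring it passed, at 1.02 (adjusted p = 0.0103), while 0 features passed with local centring on array means. Mical2, an oxidase that acts on actin, stood at 0.99 ± 0.27 in Gja9 (-/-) against Gja9 (+/-) (adjusted p = 0.127), and Cadm4, a myelin adhesion gene, at -1.04 ± 0.38 in Gja9 (-/-) against wildtype (adjusted p = 0.319). Local centring left Mical2 at 0.51 and Cadm4 at -0.30.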

How the data were processed

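The deposited file holds log2 signals scaled to the mean signal of the same sample, as the values themselves show. The sources used here do not give how the authors corrected background and dye or filtered probes. A value in all 12 samples was present for 13443 of 28704 probes, and the other 15261 had none. Of these 13443, 10356 carry 1 gene in the array's probe table, 560 several and 2527 none. Symbols of 10263 were updated by gene number from a RefSeq gene table. Clones of a gene were averaged and all other probes kept alone, which gave 9514 features and 6427 genes. Arrays have no sequencing depth, and their number, 2 per genotype, limits the precision.

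Each sample is 1 colour of an array of 1 genotype, per the labels and the design text. RNA of 60 micrograms per sample was labelled with Cy5 or Cy3. The label field gave the dye, although in 2 samples the labelling text differs. Shared arrays are not named in the labels. Across probes, the difference between samples 1 and 3 correlated with that between samples 2 and 4 by 0.933 in Gja9 (-/-), 0.919 in Gja9 (+/-) and 0.940 in wildtype, so samples 1 and 2 were put on the same array, and so were samples 3 and 4.

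The test was limma's (version 3.58.1, under R 4.3.3), two-sided, from a single model of all samples that held genotype, dye and a random array block with a consensus correlation of 0.928. Of 14.5 degrees of freedom, 6.53 came from the prior. Some of the rest come from the paired colours of each array, while genotype differs only between arrays. Adjustment was by Benjamini-Hochberg across all features. Local centring subtracted from each sample the median deviation of the 50 probe numbers on either side. A simulation of the Gja9 (-/-) and wildtype comparison, with 9514 features, served to check the fit. When 200 features were shifted by 1 log2 unit, 16% were found, with 1 false call. When 200 were shifted by 2, 87% were found, with 16 false calls. The simulated noise was drawn separately for each feature and held no shifts along probe numbers. Its spread was computed as if the 4 samples of a genotype were independent, which makes it too small when colours of an array go together. These shares are therefore likely to overstate what the fit finds in the real data.

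Same-numbered samples of Gja9 (+/-) and wildtype deviated together (correlation 0.127 to 0.237), which comes from the values and not from the labels. The model reported holds no replicate block, which was an alternative only. Those of Gja9 (-/-) did not, either with Gja9 (+/-) (0.011 to 0.050) or with wildtype (-0.101 to -0.067).

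The 51 genes, the lists of other pathway genes and markers, the local centring and the tests were chosen with earlier results of these data known. Given in full are genes with an unadjusted p under 0.05 in a comparison, the widest difference of each family in each knockout group against wildtype, and Numb, Sema3a and Nectin2, which earlier results named. From each list of other pathway genes, up to 3 of smallest p per comparison could be named, and the likeness to the gene of smallest p covers 5 others. The alternatives covered the array block and pairing, the replicate number, the dye, normalization, the samples fitted, dim probes, probe position, clones, symbols, the spread model, thresholds and leaving out each sample. Python 3.11.15, pandas 2.3.3 and matplotlib 3.10.9 made the tables and figures.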

Additional observations from a re-analysis of the deposited data

Results flagged for a closer look

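In 6 of 153 groups of 4 samples (51 genes in 3 genotypes), 1 sample lay far from the other 3 by Dixon's ratio of its gap to the range of the group. Among groups of 4 independent values chance marks about 1 in 20. These samples are the 2 colours of 2 arrays and not independent, so the share marked by chance here is not known. Plxna1 in the first Gja9 (-/-) sample stood at -0.88 log2 units, with the other 3 between -0.57 and -0.54. Plxnb1 in the same sample stood at -0.90, with the others between -0.997 and -0.986. Sema3c in the second Gja9 (+/-) sample stood at -0.16, with the others between -0.04 and -0.01. In wildtype, Efna5 stood at -1.535 and Robo1 at -1.30 in the fourth sample and Nrp1 at -1.02 in the third. The nearest other wildtype sample lay 0.22 away in Efna5, 0.15 in Robo1 and 0.09 in Nrp1.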

How the results depend on the processing

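None of the 51 genes passed in any of the 3 comparisons as reported, and leaving out each sample in turn gave 0 in all of them. Other settings gave other counts, and their causes were not tested except where the construction shows them. With no array block, so that both colours of an array count as separate samples, 12 genes passed in Gja9 (-/-) against wildtype, 2 in Gja9 (+/-) against wildtype and 16 between the knockout groups, while 1464, 70 and 2119 of all 9514 features passed. With the replicate block in place of the array block the counts were 12, 2 and 17 (1770, 135 and 2490 features), and with samples 1 and 4, and 2 and 3, taken to share an array they were 41, 25 and 44 (7122, 5747 and 7543 features), at an array correlation of -0.908. With the replicate block beside the array block, added after seeing the data, they were 0, 0 and 1 (Numbl), while 45, 0 and 44 features passed. Local centring gave 1, 0 and 2 (56, 1 and 134 features), and the same on array means, also added, gave 0 in all. Between the knockout groups, leaving out the dye term gave 1 (64 features) and an adjusted p under 0.1 gave 1, both Numbl. How many of all features had an adjusted p under 0.1 was not counted. An unadjusted p under 0.05 gave 9, 3 and 10, where 11.6%, 2.19% and 15% of all features had one. Of the 51 genes, 11, 9 and 11 turned direction under local centring, and the widest reported differences that turned were -0.49 (Nectin1), -0.30 (Nectin3) and -0.80 (Cntn4). Among the genes given in full the following turned. In Gja9 (-/-) against wildtype, Pcdh15 (-0.00) stood at 0.072 with median centring, 0.54 with quantile normalization, 0.091 with local centring and 0.16 without the first Gja9 (-/-) array, and between -0.14 and 0.11 when samples were left out in turn. Without that array Dpysl3 stood at 0.21 and Fzd8 at 0.14, and Cntnap2 lay between -0.0073 and 0.21 without single samples. In Gja9 (+/-) against wildtype, local centring, on samples or array means, turned Dpysl2 to -0.073, Efnb1 to -0.015, Lrfn4 to 0.0051 and Plxna4os1 to -0.27, which also stood at -0.031 with median centring, -0.062 with quantile normalization and between -0.10 and 0.11 without single samples. Jagn1 stood at -0.029 with quantile normalization and between -0.020 and 0.12 without single samples. Fzd5 stood at 0.34 between the knockout groups with quantile normalization. Signal over background was not read out, so how far dim genes were limited by it was not tested.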
